A study of Mus musculus with 9 samples.

Results

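The MYC/MAX/MXD network is a set of transcription factors that share 1 partner and 1 DNA motif, and it was described here through the RNA of 10 genes in mouse acute myeloid leukemia (AML) cells. The members were the rows of the expression table named Myc, Mycn, Mycl, Max, Mxd1, Mxd3, Mxd4, Mxi1, Mnt and Mga, 10 of the 55536 genes listed. They were set by name and not by a cutoff on expression, with earlier results of these data known. The cells carried the MLL-AF9 fusion and GFP from a retrovirus put into c-kit+ cells of WT or IRF7-/- mice on the C57BL/6 J background, and they were grown without irradiation in C57BL/6J recipients of 6 to 8 weeks. GFP+ leukemia cells were sorted from bone marrow on day 18 by surface c-kit (the Kit receptor) into WT c-kit- cells, WT c-kit+ cells and IRF7-/- c-kit+ cells, with 3 libraries of bulk RNA for each population. In the knockout allele a PGK-beta-geo cassette takes the place of exons 2 and 3 of Irf7 in all cells of the donor. No IRF7-/- c-kit- population was among the samples, and nothing in the labels says whether the 3 libraries of a group came from separate mice, so p-values measure only the spread between these libraries.

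MYC, MYCN and MYCL each pair with MAX through a basic helix-loop-helix leucine zipper, bind the E-box CACGTG and its variants, and raise genes of ribosome biogenesis, metabolism and the cell cycle. The MXD proteins and MNT take MAX as their partner at the same sites and bring in the SIN3-HDAC corepressor, while MGA joins MAX in a variant Polycomb complex. In myeloid cells MYC is known for keeping progenitors growing, AML with MLL fusions is known to depend on it, and MXD1 is known for its rise when granulocytes and monocytes mature.

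The stretch of each gene that encodes the DNA-contacting basic region is shown first, because it is what the members have in common, with bases that differ between them. Each stretch has 45 bases, read 5′ to 3′ on the coding strand from GENCODE M21 on GRCm38, and capitals mark the 3 codons of the histidine, glutamate and arginine that touch the E-box.
Myc, exon sequence at chr15:61989654-61989698, plus strand: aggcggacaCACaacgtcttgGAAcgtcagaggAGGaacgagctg
Mycn, chr12:12937210-12937254, minus strand: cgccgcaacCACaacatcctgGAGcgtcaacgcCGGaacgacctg
Mycl, chr4:123000267-123000311, plus strand: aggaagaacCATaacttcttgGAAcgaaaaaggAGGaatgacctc
Max, chr12:76953223-76953267, minus strand: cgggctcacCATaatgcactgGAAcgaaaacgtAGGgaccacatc
Mxd1, chr6:86653187-86668539, minus strand: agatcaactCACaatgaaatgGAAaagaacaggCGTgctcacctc
Mxi1, chr19:53331482-53369554, plus strand: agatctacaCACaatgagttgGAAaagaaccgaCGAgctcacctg
Mxd3, chr13:55328472-55329270, minus strand: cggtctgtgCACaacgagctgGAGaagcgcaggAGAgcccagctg
Mxd4, chr5:34178912-34187330, minus strand: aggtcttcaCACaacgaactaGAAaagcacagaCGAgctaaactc
Mnt, chr11:74837441-74837624, plus strand: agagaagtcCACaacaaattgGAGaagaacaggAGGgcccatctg
Mga, chr2:119958238-119958282, plus strand: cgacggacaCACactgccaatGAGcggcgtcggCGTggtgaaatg
In Mxd1, Mxi1, Mxd3 and Mxd4 the 45 bases lie on 3 exons and in Mnt on 2, so their coordinates also span introns. Of the 45 bases, Mxi1 had 37 equal to those of Mxd1, Mxd4 had 33, Mnt 31 and Mxd3 28. Mycl had 33 and Mycn 32 equal to those of Myc. Max had 23 bases equal to those of Myc and 24 equal to those of Mxd1, and Mga had 19 equal to those of Max.

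Values are TPM, a level scaled by gene length and by the total of the library, so levels of different genes can be set side by side. The libraries summed to between 987468 and 992231 TPM. TPM keep no read numbers, so depth is unknown and the spread of each group's libraries is the sole measure of precision. The top 10 genes of a library held 13.1% to 17.3% of its TPM in WT c-kit+ and 9.39% to 10.3% elsewhere, and since the total is fixed, every other gene had less to share in WT c-kit+. Irf7 stood at 22.3 to 32.3 TPM in WT c-kit-, at 3.36 to 5.31 TPM in WT c-kit+ and at 5.97 to 12.8 TPM in the libraries labelled IRF7-/- c-kit+. This goes against the label, although 1 value per gene cannot show whether the deleted exons were read, so these libraries are called by their label throughout and every direction drawn from them rests on it. Kit, which marks the sort, stood at 0.52 to 3.03 TPM in WT c-kit-, 50.7 to 58.5 TPM in WT c-kit+ and 70.3 to 85.7 TPM in the labelled libraries. None of 8 markers of the leukemia cells was under 1 TPM in all 3 libraries of a group. Of 8 T and NK cell markers, 6 or 7 were under 1 TPM in every library of a group, and the sums of 0.89 to 2.94 TPM in WT c-kit-, 136 to 194 TPM in WT c-kit+ and 92.4 to 167 TPM in the labelled libraries were mostly Nkg7. Markers of B and plasma cells, erythroid cells, megakaryocytes, resident macrophages, stroma and mast cells summed to at most 137 TPM per list in any library, and the part of such cells in the results was not tested. In bulk RNA, fewer cells of a type and less RNA per cell cannot be told apart.

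Of the MYC family, Myc was the most abundant in every library. Myc (chr15:61985391-61990374, plus strand), the leukemia-associated member and the activator of growth genes, had 46.6, 62.0 and 53.1 TPM in WT c-kit- libraries 1, 2 and 3, and 96.7, 117 and 83.9 TPM in WT c-kit+. In the labelled libraries it had 109, 136 and 107 TPM. Every c-kit+ library of either genotype label lay above every WT c-kit- library, while the c-kit+ groups overlapped.

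Mycl (chr4:122995652-123002485, plus strand), a relative with a narrower tissue range that is known in dendritic cells, went the other way with the sort. It had 7.15, 7.24 and 5.30 TPM in WT c-kit-, 0.83, 1.19 and 0.69 TPM in WT c-kit+, and then 0.24, 0.83 and 0.21 TPM in the labelled libraries. Both c-kit+ groups lay below WT c-kit- in every library and overlapped each other near 1 TPM. Mycn (chr12:12936093-12941914, minus strand), the member of neural and early embryonic tissue, reached at most 0.19 TPM in any library and was listed at 0 in 1 library of WT c-kit- and 1 of the labelled libraries.

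Max (chr12:76937269-76962201, minus strand), the obligate partner, was among the 3 most abundant members in every group. It had 77.3, 84.1 and 89.5 TPM in WT c-kit-, 81.4, 107 and 77.2 TPM in WT c-kit+, and then 71.2, 67.5 and 64.2 TPM in the labelled libraries. The labelled libraries lay below all 6 others, by a narrow margin, and the WT groups overlapped. Gm47218 overlaps Max on the same strand, so reads there may be split between them.

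Of the MXD family, Mxi1 (chr19:53310518-53375810, plus strand), a MAX-dependent repressor, was the most abundant of its family in every group. Its levels were 73.2, 70.9 and 80.3 TPM in WT c-kit-, 120, 109 and 122 TPM in WT c-kit+, and then 96.1, 87.8 and 88.3 TPM in the labelled libraries. The 3 groups did not overlap, with WT c-kit+ highest and the labelled libraries between the WT groups.

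Mxd1 (chr6:86647042-86669161, minus strand), the repressor tied to myeloid maturation, had 16.4, 17.2 and 27.6 TPM in WT c-kit- and 26.4, 21.04 and 24.9 TPM in WT c-kit+. In the labelled libraries it had 8.26, 9.51 and 8.11 TPM. The labelled libraries lay far below all 6 WT libraries, and the WT groups overlapped, with WT c-kit- library 3 the highest of the 9. Gm44292 overlaps Mxd1 on the same strand.

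Mxd3 (chr13:55325168-55329823, minus strand), the family member tied to proliferating cells and S phase, had 24.3, 18.5 and 21.7 TPM in WT c-kit-, 21.5, 14.5 and 19.5 TPM in WT c-kit+, and then 10.2, 12.2 and 8.16 TPM in the labelled libraries. As for Mxd1, the labelled libraries were below all others and the WT groups overlapped. Mxd4 (chr5:34173883-34187720, minus strand), a repressor of resting and differentiating cells, had 44.3, 45.9 and 48.9 TPM in WT c-kit-, 41.3, 45.7 and 42.6 TPM in WT c-kit+, and then 38.7, 48.3 and 41.8 TPM in the labelled libraries, and all 3 groups overlapped. Prelid1 overlaps Mxd3, and Gm42846 Mxd4, from the opposite strand, and the strand setting of the counting is not given in the sources used here. The same holds for Mxi1, with AC133451.2 and Gm10197.

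Mnt (chr11:74830920-74845725, plus strand), the repressor found in most tissues, had 22.7, 26.7 and 27.6 TPM in WT c-kit-, 21.9, 23.2 and 19.7 TPM in WT c-kit+, and then 17.9, 15.1 and 16.8 TPM in the labelled libraries. It was lowest in the labelled libraries without overlap, and the WT groups overlapped. Mga (chr2:119897228-119969581, plus strand), the very large scaffold protein of the Polycomb branch, stood in the opposite order, with 22.3, 22.8 and 23.5 TPM in WT c-kit-, 24.4, 29.0 and 25.6 TPM in WT c-kit+, and then 33.4, 30.3 and 37.4 TPM in the labelled libraries. Its 3 groups did not overlap, and the labelled libraries were highest.

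**Figure D1:**
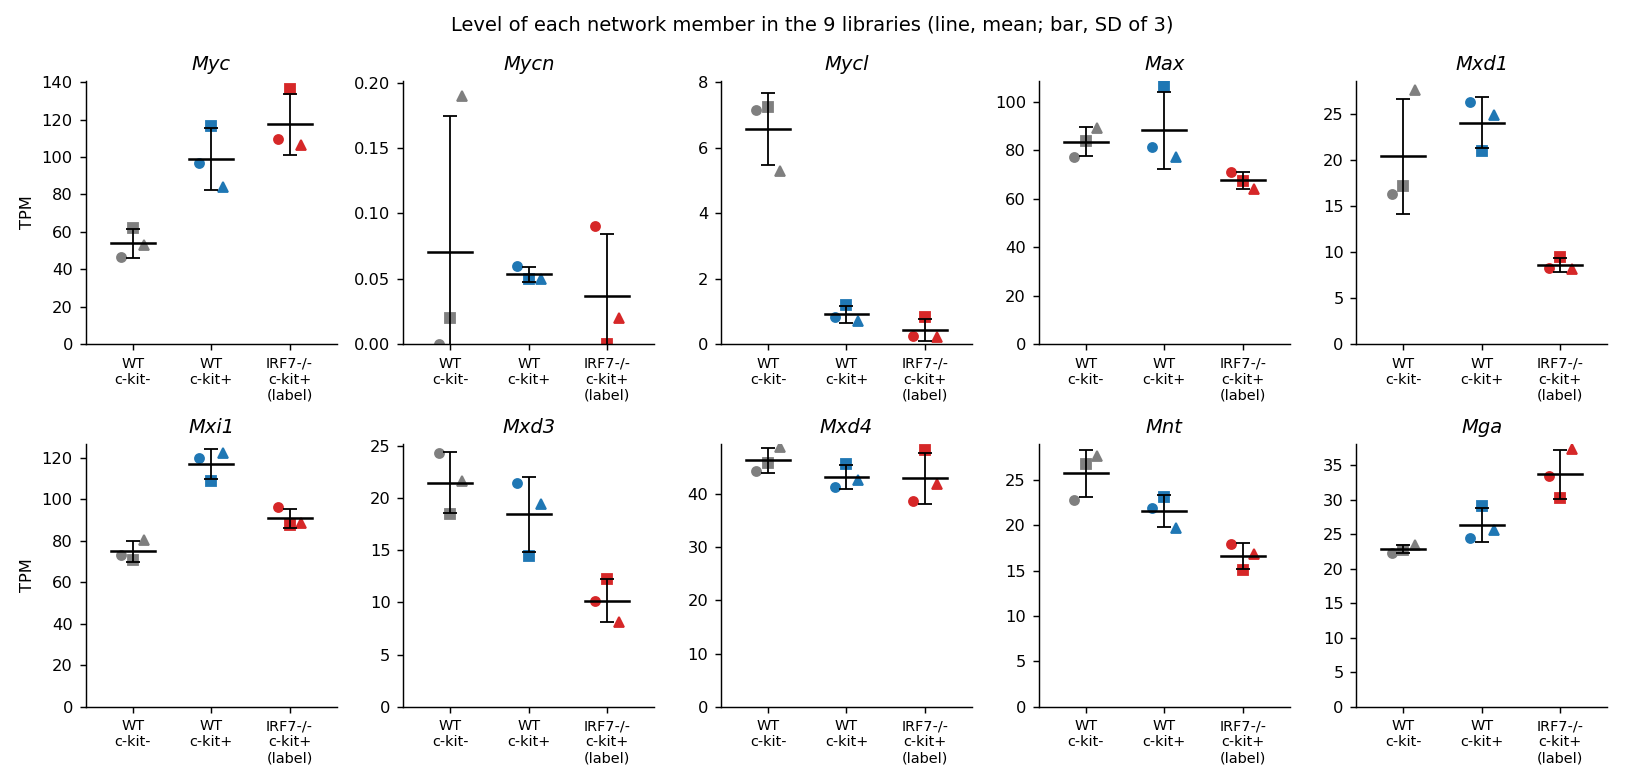
Level of each of the 10 members in TPM (y axis, from 0, own scale per gene) by group (x axis). Each point is 1 library (circle, square and triangle are replicates 1, 2 and 3), the line is the mean and the bar the SD of 3 libraries. Myc was higher in both c-kit+ groups than in WT c-kit- and Mycl lower, while Mxd1, Mxd3, Mnt and Max were lowest in the libraries labelled IRF7-/- c-kit+.

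The order of the members changed between the groups. In WT c-kit- Max led with 83.6 ± 6.10 TPM (SD, n = 3), followed by Mxi1 with 74.8 ± 4.92 and Myc with 53.9 ± 7.69. In WT c-kit+ Mxi1 led with 117 ± 7.03 TPM, followed by Myc with 99.1 ± 16.5 and Max with 88.4 ± 15.9, and the last pair lay within each other's spread. In the labelled libraries Myc led with 117 ± 16.3 TPM, followed by Mxi1 with 90.7 ± 4.63 and Max with 67.6 ± 3.49. Mxd1 moved from 6th place in WT c-kit+ to 8th in the labelled libraries, next to Mxd3 with 10.2 ± 2.03 TPM, within its spread.

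Comparing the c-kit+ cells of both genotype labels asks what differed between the labels within the c-kit+ fraction, in which leukemia stem cells are enriched. Each label is a leukemia from its own infected donor cells, so genotype and leukemia cannot be told apart. The paper also reports a larger c-kit+ share in its IRF7-/- leukemia than in its WT leukemia. Of the 8 members that passed the filter of 1 TPM in at least 3 of the 6 libraries, Mxd1, Mxd3, Max, Mxi1 and Mnt were lower in the libraries labelled IRF7-/- c-kit+ than in WT c-kit+, Mga was higher, and Myc and Mxd4 did not pass the test. Mycl and Mycn were too low to be tested. The test was limma on log2(TPM + 1) with p adjusted over all 13238 genes tested. Adding 1 TPM before the logarithm makes changes of genes at low levels look smaller than they were. An adjusted p under 0.05 was common, since 48.0% of all genes had one, 31.9% higher and 16.1% lower, against 1 and 5 of the 8 members. Libraries of the groups did not overlap for 6 of the 8 members and for 59.1% of all genes. The median log2 fold change of the 8 was −0.36, and that of all genes 0.12, so that the typical gene also shifted and each change is to be read against 0.12. With libraries scaled to a common median gene, the all-gene calls split 50% higher instead of 66.4%, and with quantile normalization 55.1%.

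Mxd1 had the largest change of the network, a log2 fold change of −1.38 (SE 0.11, limma adjusted p = 0.000243), a ratio of mean TPM of 0.358. It was the only member past both an adjusted p of 0.05 and a log2 fold change of 1 in size, as 11.7% of all genes were, and it stood 1004th by size among the genes tested. Mxd3 followed with −0.80 (SE 0.18, limma adjusted p = 0.0121). Both calls held in all 14 alternatives run, with Mxd1 between −1.50 and −1.31 and Mxd3 between −0.95 and −0.66. An exact permutation test of Mxd1 alone gave p = 0.1, which is the lowest value possible with 3 against 3, and so it did for every member whose groups did not overlap.

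Mxi1 fell by 0.36 on the log2 scale (SE 0.067, limma adjusted p = 0.00498), and this call also held in all 14 alternatives. For Max the change was −0.37 (SE 0.12, limma adjusted p = 0.0453), and for Mnt −0.36 (SE 0.10, limma adjusted p = 0.0213). The calls of Max and Mnt were each lost when any of 4 libraries was left out, while their changes stayed negative, at −0.46 to −0.23 for Max and −0.42 to −0.30 for Mnt over the libraries left out. The change of Max was smallest without WT c-kit+ replicate 2, where it still passed. The limma adjusted p of Max rose to 0.0641 without WT c-kit+ replicate 1, and to 0.0765, 0.0957 and 0.125 without replicates 1, 2 and 3 of the labelled libraries. That of Mnt rose to 0.0634 and 0.0543 without replicates 1 and 2 of WT c-kit+, and to 0.0559 and 0.0551 without replicates 2 and 3 of the labelled libraries. Mga rose by 0.34 (SE 0.10, limma adjusted p = 0.0306), but only by 0.22 relative to the median gene. Its limma adjusted p was 0.126 with median scaling and 0.0848 with quantile normalization, and 0.0938 and 0.0861 without WT c-kit+ replicates 1 and 3 and 0.0779 and 0.0937 without replicates 1 and 3 of the labelled libraries.

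Myc differed by 0.25 (95% interval −0.092 to 0.58, limma adjusted p = 0.194), an interval that holds both a small fall and a rise larger than that of Mga. Mxd4 differed by −0.013 (95% interval −0.23 to 0.21, limma adjusted p = 0.920), with a sign that changed when single libraries were left out. Without WT c-kit+ replicate 1, or without replicate 3 of the labelled libraries, 3 members passed instead of 6, and these were Mxd1, Mxi1 and Mxd3 in both cases.

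**Figure D2:**
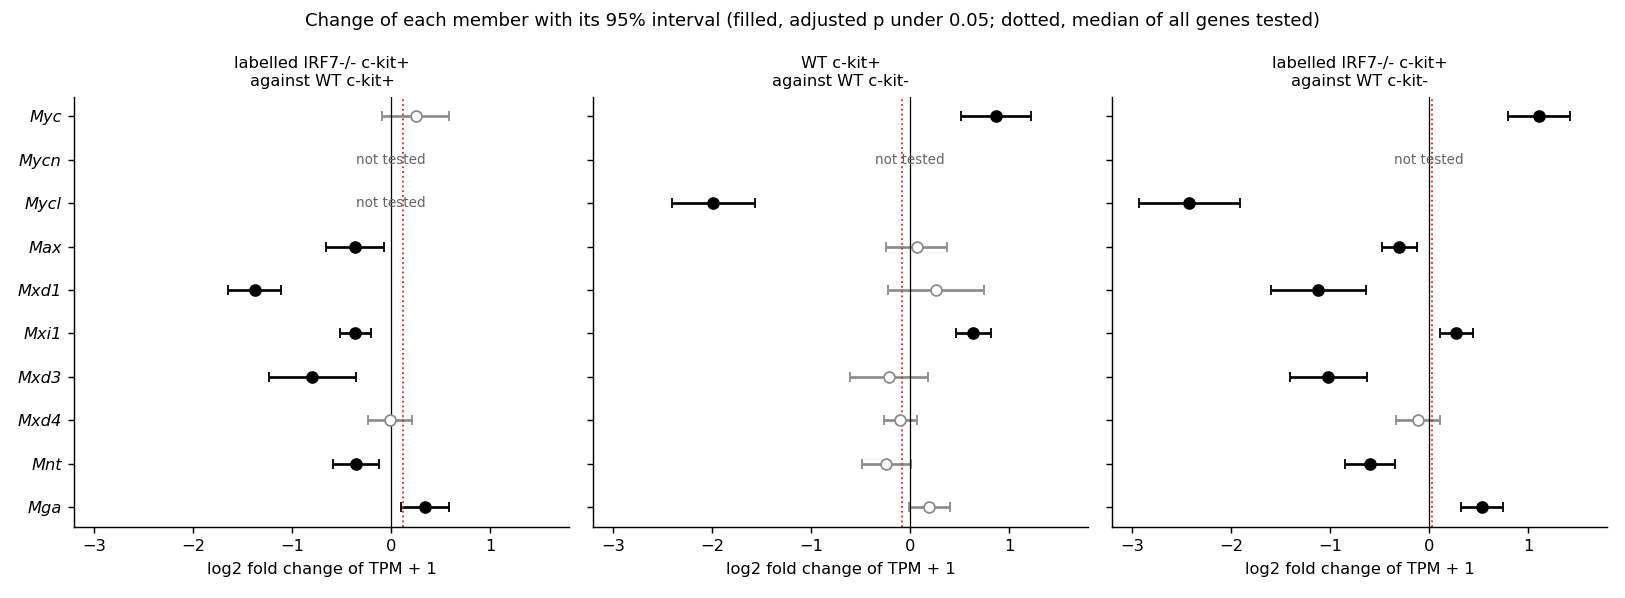
Change of each member (log2 fold change of TPM + 1, x axis) in the 3 comparisons, with the 95% interval of limma. Filled points had an adjusted p under 0.05, and the dotted line is the median of all genes tested, 0.12, −0.082 and 0.030 from left to right. Mxd1 stands apart at −1.38 in the left panel, and Mycl at −1.99 and −2.42 in the other panels.

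Most genes of a list of myeloid maturation were, like Mxd1, lower in the labelled libraries than in WT c-kit+. Of 22 granule and maturation genes, 16 were lower and 2 higher, against 16.1% and 31.9% of all genes, with a median log2 fold change of −2.68. The list summed to 88517 to 141820 TPM in WT c-kit+, 24027 to 28757 TPM in the labelled libraries and 26027 to 52892 TPM in WT c-kit-. Fcnb, a ficolin of granulocyte precursors, fell by 6.77 (limma adjusted p = 5.19e-05), and Camp, the cathelicidin of secondary granules, by 5.82 (limma adjusted p = 4.29e-05). Ctsg, a protease of primary granules, rose by 1.63 (limma adjusted p = 0.000894). Prtn3, another protease of those granules, rose by 0.52 (limma adjusted p = 0.0276), and with 1 of 4 libraries left out, WT c-kit+ replicates 1 and 3 or replicates 1 and 3 of the labelled libraries, the number that rose was 1 instead of 2. In WT c-kit+ against WT c-kit-, 10 of the 22 were higher and 5 lower, against 14.0% and 27.6% of all genes, while Mxd1 did not pass there. Fcnb and Camp rose by 4.04 and 3.98 in that comparison (limma adjusted p = 0.000411 and 0.00234), and Mmp8, the neutrophil collagenase, fell by 3.79 (limma adjusted p = 0.000184). Csf1r fell there by 2.99, from 399 to 50.9 TPM (limma adjusted p = 7.12e-05). The part of maturing cells in the Mxd1 difference was not tested.

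Separating the WT cells by surface c-kit asks how the network differed between the c-kit- and c-kit+ leukemia cells. Of 9 members tested, Myc and Mxi1 were higher in WT c-kit+ and Mycl was lower, against 14.0% of all 13261 genes higher and 27.6% lower. In all, 41.6% of genes passed and 54.4% did not overlap between the groups, against 3 and 4 of the 9 members. Mycl had the largest change, −1.99 (SE 0.17, limma adjusted p = 0.000203), and 14.4% of all genes passed with a change of at least 1 in size. Mycl met the filter through WT c-kit-, the group where it was high, so its change and call are given as description only. Myc rose by 0.86 (SE 0.15, limma adjusted p = 0.00376), a ratio of mean TPM of 1.84, and Mxi1 by 0.64 (SE 0.074, limma adjusted p = 0.000699). All 3 calls held in all 14 alternatives.

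The other members lay between −0.24 for Mnt and 0.26 for Mxd1 in this comparison, with limma adjusted p from 0.108 to 0.714. Mga did not overlap between the groups and had a change of 0.19 (limma adjusted p = 0.116), which passed with quantile normalization (limma adjusted p = 0.0155) and with median scaling (limma adjusted p = 0.0276). Mxd1 passed once WT c-kit- replicate 3, its highest library, was left out, with a change of 0.49 (limma adjusted p = 0.0220). Mxd4 had −0.099, with a sign that turned to 0.071 under quantile normalization, and Max had 0.067, which turned to −0.074 without WT c-kit+ replicate 2.

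Against WT c-kit-, the libraries labelled IRF7-/- c-kit+ differed in sort and in genotype label at once, and those causes cannot be told apart. This comparison and the others share libraries, so their values are given side by side only. Of 9 members tested, Myc, Mga and Mxi1 were higher and Mycl, Mxd1, Mxd3, Mnt and Max lower, and Mxd4 did not pass with −0.11 (limma adjusted p = 0.333). Among all 13510 genes 59.4% passed, 30.7% higher and 28.7% lower, and 67.1% did not overlap, against 8 members passing and 8 not overlapping. Myc rose by 1.11 (SE 0.13, limma adjusted p = 0.000488), from 53.9 ± 7.69 to 117 ± 16.3 TPM (SD, n = 3). Mycl fell by 2.42, Mxd1 by 1.12 and Mxd3 by 1.02 (limma adjusted p = 0.000128, 0.00297 and 0.00183). The ratio of mean TPM of Mycl was 0.0650, and its change was −3.84 with a pseudocount of 0.1 TPM. Mycl was under 1 TPM in every labelled library, so it met the filter only through WT c-kit-, where it was high. Its change and call are therefore description only. Myc, Mycl, Mxd1 and Mxd3 were the 4 members past a change of 1 in size, a size reached by 20.3% of all genes. Mnt, Max, Mga and Mxi1 changed by −0.60, −0.30, 0.54 and 0.28 (limma adjusted p = 0.00279, 0.0111, 0.00222 and 0.0125). The 8 calls held in all 14 alternatives.

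Ratios between members within a library do not depend on how that library was scaled, and they were described without a test, since the members' own changes are in them. The MYC family summed to 84.7 to 118 TPM in WT c-kit+ and 107 to 137 TPM in the labelled libraries, which overlapped. The MXD family, Mxd1, Mxd3, Mxd4 and Mxi1, summed to 190 to 209 TPM and 146 to 158 TPM, which did not. The ratio of the families was 0.340, 0.454 and 0.328 in WT c-kit-, 0.467, 0.620 and 0.405 in WT c-kit+, and 0.716, 0.868 and 0.730 in the labelled libraries. The labelled libraries lay above the other 6, and the WT groups overlapped.

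Without Mxi1, which made up most of the MXD sum in WT c-kit+, the ratio was 0.692 ± 0.136 in WT c-kit-, 1.17 ± 0.248 in WT c-kit+ and 1.91 ± 0.0598 in the labelled libraries (SD, n = 3), and no group overlapped another. Myc against Mxd1 was 2.79 ± 0.838, 4.19 ± 1.18 and 13.6 ± 0.646, where the WT groups overlapped and the labelled libraries lay above both. Myc against Max was 0.644 ± 0.0800, 1.12 ± 0.0558 and 1.74 ± 0.249, without overlap of any groups, and Max made up 23.5%, 20.04% and 17.4% of the summed TPM of the 10 members. These are RNA ratios, and protein or dimer levels were not measured.

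**Figure D3:**
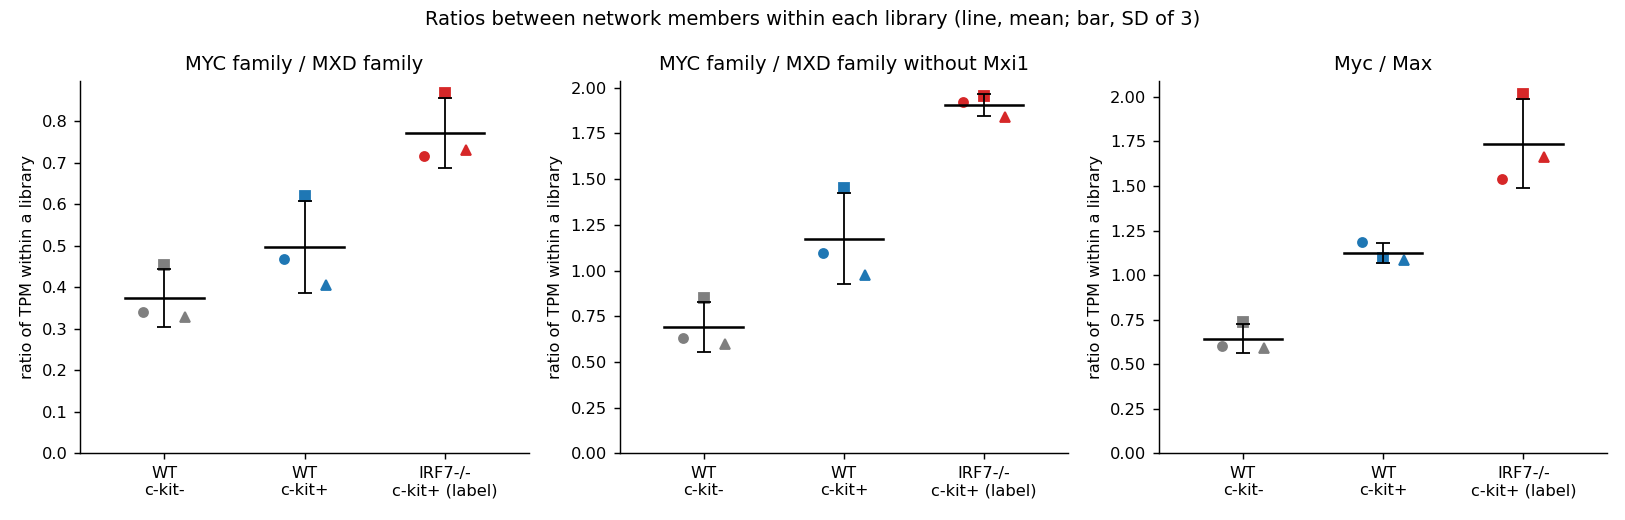
Ratios of TPM within each library (y axes, from 0) by group (x axis). Points are libraries (circle, square and triangle are replicates 1, 2 and 3), the line is the mean and the bar the SD of 3 libraries. In each panel the libraries labelled IRF7-/- c-kit+ lie above the other 6, with a mean of 0.772 against 0.497 in WT c-kit+ in the left panel.

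Genes known as MYC targets were counted next, in lists drawn from general knowledge with earlier results of these data known. Of 36 ribosome biogenesis targets, 30 were higher and 0 lower in the labelled libraries than in WT c-kit+, against 31.9% and 16.1% of all genes, and the median log2 fold change was 0.54 against 0.12. Rcl1, an RNA-processing factor of the small subunit, rose from 17.6 to 34.3 TPM, a change of 0.94 (limma adjusted p = 0.00180), and Grwd1, a ribosome assembly factor, from 13.3 to 26.1 TPM, a change of 0.93 (limma adjusted p = 0.00131). Over all alternatives 22 to 34 of the 36 were higher and 0 lower. Between the WT groups only 4 of the 36 were higher in WT c-kit+ and 2 lower, against 14.0% and 27.6% of all genes. The median was 0.15 there, and −0.082 over all genes. The number lower was 1 when any library but WT c-kit+ replicate 2 was left out. Polr1b, a subunit of RNA polymerase I, rose there by 0.71 (limma adjusted p = 0.00742) and Tcof1, the nucleolar protein treacle, fell by 0.64 (limma adjusted p = 0.00514). With quantile normalization and with median scaling the number higher was 11 and 8. Against WT c-kit-, 33 of the 36 were higher in the labelled libraries and 0 lower, led by Wdr12, a large-subunit processing factor, with 1.55 (limma adjusted p = 0.000126). Among all genes, 30.7% were higher and 28.7% lower in that comparison.

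Of 32 targets in metabolism and growth, 23 were higher and 1 lower in the labelled libraries than in WT c-kit+, against 31.9% and 16.1% of all genes, with a median of 0.50. The number lower was 2 with quantile normalization and 4 with median scaling. Shmt2, the mitochondrial serine hydroxymethyltransferase, rose by 1.10 (limma adjusted p = 0.000387) and Slc7a5, a large neutral amino acid transporter, by 1.01 (limma adjusted p = 0.00237). Ccnd2, a D-type cyclin, fell by 1.82, from 6.53 ± 1.08 to 1.17 ± 0.559 TPM (SD, n = 3, limma adjusted p = 0.000954). Between the WT groups 9 of 31 were higher in WT c-kit+ and 3 lower, against 14.0% and 27.6% of all genes. Tfrc, the transferrin receptor, rose there by 1.45 (limma adjusted p = 0.00159) and Hk2, a hexokinase, fell by 0.69 (limma adjusted p = 0.00637). That count of 9 fell to 4 and 5 without WT c-kit+ replicates 2 and 3, and to 3 and 5 without WT c-kit- replicates 1 and 3. Against WT c-kit-, 24 of 32 were higher in the labelled libraries, and 1, Ccnd2, was lower, a call lost without WT c-kit- replicates 2 or 3 or without replicates 1 or 3 of the labelled libraries. Srm, the spermidine synthase, rose there by 1.26 (limma adjusted p = 2.87e-05). Among all genes, 30.7% were higher and 28.7% lower in that comparison.

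Of 9 genes known to be repressed by MYC, 8 were tested between the c-kit+ groups. In the main setting and in all 14 alternatives, 6 were lower in the labelled libraries and 1 higher. Among all genes, 16.1% were lower and 31.9% higher. The median of the list was −0.85, and that of all genes 0.12. Thbs1, a secreted matrix glycoprotein, fell by 3.69 (limma adjusted p = 0.00056) and Gadd45a, a stress gene of growth arrest, by 1.602 (limma adjusted p = 0.00091). Thbs1 had 0.49, 0.11 and 0.71 TPM in the labelled libraries, so it met the filter only through WT c-kit+, where it was high. The change and call of Thbs1, counted among the 6, are therefore description only. Cdkn1a, the cell cycle inhibitor p21, went from 33.04 to 17.4 TPM, and Cdkn1b, the inhibitor p27, from 42.6 to 23.2 TPM, both lower (limma adjusted p = 0.00536 and 0.00132). The gene that rose was Itgb1, the integrin beta 1 chain, by 0.48 (limma adjusted p = 0.00102). Between the WT groups 4 of 8 were lower in WT c-kit+ and 0 higher, against 27.6% and 14.0% of all genes. Without WT c-kit- replicate 3, 2 were higher instead of 0. The 4 were led by Cdkn1a with −1.46 (limma adjusted p = 0.00305) and Ndrg1, a hypoxia- and differentiation-linked gene, with −1.31 (limma adjusted p = 2.72e-05). Against WT c-kit-, 6 of 8 were lower in the labelled libraries and 0 higher, or 1 higher without WT c-kit- replicate 1 or 3. Thbs1 was again among the 6, and there it met the filter only through WT c-kit-. Among all genes, 28.7% were lower and 30.7% higher in that comparison.

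Proliferation genes were counted beside these lists. Of 20 S phase genes, 16 were higher and 0 lower in the labelled libraries than in WT c-kit+, against 31.9% and 16.1% of all genes. Their median was 0.41, and that of all genes 0.12. They were led by Ung, a DNA repair glycosylase, with 0.88 (limma adjusted p = 0.00138) and Mcm3, a subunit of the replicative helicase, with 0.77 (limma adjusted p = 0.000413). Without WT c-kit+ replicate 2, 1 was lower. Of 20 G2/M genes, 2 were higher, Bub1 and Ccnb2, a share below the 31.9% of all genes. Their median was 0.060, under the 0.12 of all genes. The count of 2 ran from 0 to 4 over the libraries left out, 4 without WT c-kit+ replicate 1 and 0 without replicate 2 of the labelled libraries. Between the WT groups 14.0% of all genes were higher in WT c-kit+. There 14 of the 20 S phase genes were higher, or 9 without its replicate 1 or 3, and 1 of the 20 G2/M genes was, Cdk1. That last count was 0 to 2 with single libraries left out (2 without WT c-kit+ replicate 2 or WT c-kit- replicate 1, 0 without any of the other 4), 0 without a filter, 7 with quantile normalization and 5 with median scaling. The part of the cell cycle in the counts of MYC targets was not tested.

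**Figure D4:**
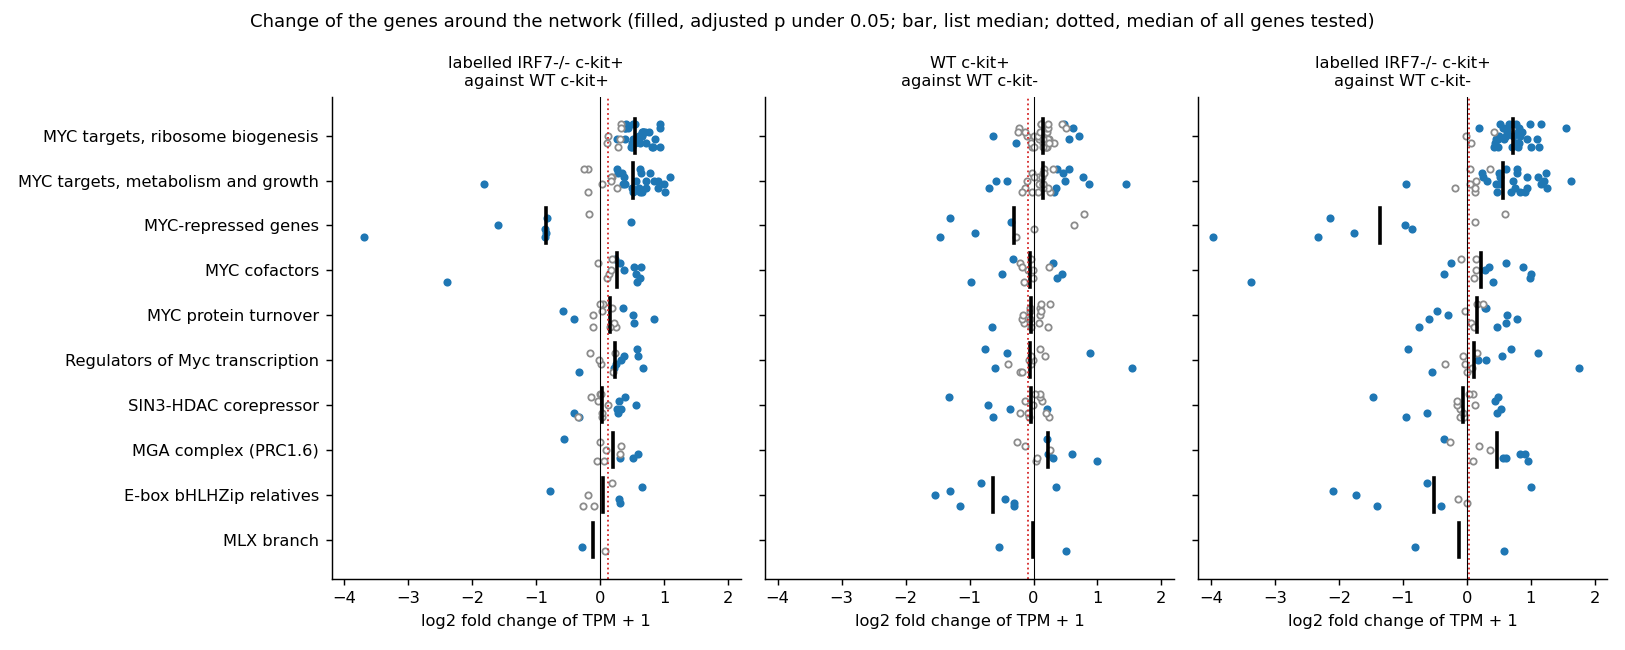
Change (log2 fold change of TPM + 1, x axis) of each tested gene in 10 lists around the network (rows) in the 3 comparisons. Each point is a gene, filled where its adjusted p was under 0.05, the bar is the median of the list, and the dotted line is the median of all genes tested. Ribosome biogenesis targets lie right of the dotted line in the left and right panels, with medians of 0.54 and 0.72, and less so in the middle panel, with 0.15.

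Genes whose products act with or on the members were counted in the same way. Of 14 MYC cofactors, 8 were higher and 1 lower in the labelled libraries than in WT c-kit+, against 31.9% and 16.1% of all genes. Kat2a, a histone acetyltransferase, and Ruvbl1, a helicase of the TIP60 and INO80 complexes, each rose by 0.63 (limma adjusted p = 0.00291 and 0.000934). Pim1, a kinase that phosphorylates histone H3 with MYC and that is induced by cytokine signals, fell by 2.40, from 39.4, 58.7 and 38.8 TPM in WT c-kit+ to 7.60, 9.63 and 6.12 TPM (limma adjusted p = 0.000289). In WT c-kit- Pim1 had 58.2, 101 and 119 TPM.

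Of 15 genes that act on MYC protein, 4 were higher and 2 lower, which is near the shares of all genes. Skp2, an F-box protein of a MYC ubiquitin ligase, rose by 0.84 (limma adjusted p = 0.000548) and Set, an inhibitor of the phosphatase PP2A, by 0.53 (limma adjusted p = 0.00220). Usp28, a deubiquitinase of MYC, and Fbxw7, the F-box protein that marks MYC for degradation, fell by 0.58 and 0.41 (limma adjusted p = 0.00464 and 0.0268). The number lower was 1 without any of the 3 WT c-kit+ libraries or without replicate 2 or 3 of the labelled libraries.

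Of 13 tested regulators of Myc transcription, 7 were higher, against 31.9% of all genes, or 4 without replicate 1 of the labelled libraries. Cebpa, the granulocyte lineage factor, rose by 0.67 (limma adjusted p = 0.00374) and Stat5a, a cytokine signal transducer, by 0.59 (limma adjusted p = 0.00153). Between the WT groups Myb, a factor of immature blood cells, rose by 1.54 in WT c-kit+ (limma adjusted p = 2.72e-05) and Kmt2a, the MLL gene itself, by 0.88 (limma adjusted p = 0.00585). Any human MLL sequence of the transgene was not separated from mouse Kmt2a here.

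Genes of the repressor complexes were called in shares near those of all genes between the c-kit+ groups, 31.9% higher and 16.1% lower. Of 16 SIN3-HDAC genes, 6 were higher and 2 lower in the labelled libraries, led by Brms1l with 0.57 and Hdac2, a histone deacetylase, with 0.38 (limma adjusted p = 0.0121 and 0.00233), and by Arid4b and Arid4a, SIN3 subunits, with −0.42 and −0.33 (limma adjusted p = 0.0110 and 0.00540). Sin3a, the scaffold bound by MXD proteins, had 51.6 TPM in WT c-kit+ and 51.9 TPM in the labelled libraries, a difference of 0.010 (95% interval −0.17 to 0.19). Of 10 genes of the MGA complex, 3 were higher and 1 lower, or 5 higher without replicate 2 of the labelled libraries. L3mbtl2 and E2f6, its histone-binding and DNA-binding subunits, rose by 0.60 and 0.52 (limma adjusted p = 0.000879 and 0.00394), and Rybp, a RING1 partner, fell by 0.57 (limma adjusted p = 0.00199).

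Factors that read E-boxes without MAX were mostly lower in the c-kit+ cells of the WT leukemia. Of 8 such relatives, 7 were lower and 1 higher in WT c-kit+ than in WT c-kit-, against 27.6% and 14.0% of all genes. With quantile normalization or median scaling, 4 were lower. Tfe3 and Tfeb, activators of lysosome genes, fell by 1.54 and 1.31 (limma adjusted p = 0.00021 and 0.000179), and Tfec, their myeloid relative, rose by 0.35 (limma adjusted p = 0.00565). In the labelled libraries against WT c-kit+, Tfec rose by 0.65 and Srebf1, the lipid synthesis factor, by 0.31 (limma adjusted p = 0.000954 and 0.0205), and Tfeb fell by 0.78 (limma adjusted p = 0.00441). There 3 were higher and 1 lower, near the shares of all genes, 31.9% and 16.1%. Only 1 was higher without WT c-kit+ replicate 3, without replicate 3 of the labelled libraries or with either scaling. Mlxip, the MONDO partner of Mlx in a parallel branch of the network, fell by 0.28 (limma adjusted p = 0.0217), which was lost without WT c-kit+ replicate 3 or without replicate 1 or 3 of the labelled libraries.

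Promoter windows of the members were searched for the E-box, because members can be bound by the network itself. RefSeq windows on GRCm38.p6, 250 bases before to 50 after a start site, were found for 9 members in 11 windows, 3 of them of Mxi1, and the promoter of Myc was not searched here. On either strand, CACGTG was held by the windows of Max, Mxd4 and Mnt, and by 7.15% of all 32851 windows. The 30 bases around each match are shown, with the match in capitals.
Max, chr12:76962234-76962263, minus strand: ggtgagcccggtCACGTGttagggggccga
Mxd4, chr5:34187912-34187941, minus strand: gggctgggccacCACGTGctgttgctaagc
Mnt, chr11:74830789-74830818, plus strand: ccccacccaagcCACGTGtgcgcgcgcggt
The match began at −3 in Max, −219 in Mxd4 and −123 in Mnt, counted from the start site. The variant CACGCG, held by 9.27% of all windows, was found in Mycl at −20 and in Mga at −21, where it reads CGCGTG on the strand shown.
Mycl, chr4:122995899-122995928, plus strand: ccaagccccgggCACGCGacgagatataaa
Mga, chr2:119897195-119897224, plus strand: agctggtaggagCGCGTGcgcagtgacgtg
No window of these 9 members held the interferon regulatory factor motif (GAAA, any 2 bases, GAAA) or the PU.1 motif GAGGAAGT, which 3.44% and 3.2% of all windows held. An E2F motif (TTTCCCGC, TTTCGCGC, TTTGCCGC or TTTGGCGC), held by 2.26% of all windows, was found in Mycn alone of the 9 members searched. None of these motifs was in the window of Mxd1, whose upstream stretch is shown because Mxd1 changed most between the c-kit+ groups.
Mxd1, chr6:86669235-86669409, minus strand: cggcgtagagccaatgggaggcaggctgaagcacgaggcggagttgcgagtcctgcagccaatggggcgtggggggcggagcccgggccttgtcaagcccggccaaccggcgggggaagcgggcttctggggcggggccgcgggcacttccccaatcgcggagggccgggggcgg
A match is a description of letters, and no binding was measured. The members with an E-box, Max, Mxd4 and Mnt, changed by −0.37, −0.013 and −0.36 between the c-kit+ groups.

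The genes nearest to a member in pattern were found among 4632 genes with a mean of at least 5 TPM and an SD of at least 0.3, by the root mean square difference of centred log2(TPM + 1) over the 9 libraries. Nearest to Myc were Gne, Inafm2, Polr1b, Bcl7a and Cenph, with differences of 0.11 to 0.15. Gne, an enzyme of sialic acid synthesis, had 17.7 ± 1.52, 35.8 ± 4.66 and 40.6 ± 4.15 TPM (SD, n = 3) in WT c-kit-, WT c-kit+ and the labelled libraries. Nearest to Mxd1 were Pitpnm1, Plxnc1, Crispld2, Pram1 and Rnf144a, with differences of 0.085 to 0.16. Pitpnm1, a phosphatidylinositol transfer protein, had 83.1 ± 14.9, 98.3 ± 11.7 and 37.3 ± 1.76 TPM, and Pram1, an adaptor of myeloid cells, had 90.9 ± 34.4, 111 ± 25.6 and 36.7 ± 0.421 TPM. With a pseudocount of 0.1, 4 of the 5 genes were shared for each member.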

How the data were processed

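Bulk RNA of 9 libraries, 3 per group, was made with the TruSeq RNA kit and deposited by the authors as 1 table of TPM per gene, taken as TPM because the 9 libraries sum to nearly the same total, 987468 to 992231. The paper's methods call the assay a microarray. Aligner, build, strand setting and filters are not given in the sources used here. All 55536 identifiers are in GENCODE M21 (GRCm38), used for coordinates. Each value column was matched to its sample by name. Depth is unknown, so no counting interval is given.

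Each pair of groups was fitted alone, on log2(TPM + 1), with lmFit of limma 3.58.1 in R 4.3.3 followed by eBayes with a trend. A gene entered if 3 or more of the 6 libraries reached 1 TPM, and Benjamini-Hochberg adjustment ran over every gene that entered. The test was checked on simulated data. The members and gene lists were chosen with earlier results of these data known. Beside the members, up to 2 rises and 2 falls per list were eligible to be named, those with the largest change among genes with an adjusted p under 0.05 and no overlap of libraries. Named outside this rule, after their values were seen, were Cdkn1a and Cdkn1b between the c-kit+ groups, Sin3a and Nkg7. The alternatives were other filters, a pseudocount of 0.1, quantile normalization, median scaling, all libraries in 1 fit, no trend, the replicate number as a block, and each library left out. Ddit3 has 2 identifiers, of which 1 was used. Values of 1 listed gene are not reported here. Figures were drawn with matplotlib 3.10.9.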

Additional observations from a re-analysis of the deposited data

How the results depend on the processing

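The number of members passing ranged from 3 to 5 with single libraries left out between the c-kit+ groups (6 in the main setting), and from 4 to 6 in the other alternatives. It was 3 to 4 between the WT groups, and 8 in every alternative for the labelled libraries against WT c-kit-. Over the members and alternatives, 336 changes kept direction and side of the threshold, 18 lost the call, 4 gained one and 6 turned in sign. All 6 were of members that did not pass: Mxd4 between the c-kit+ groups (0.027 without WT c-kit+ replicate 2, 0.057 and 0.0021 without replicates 1 and 3 of the labelled libraries, and −0.099 to 0.057 over all libraries left out), Mxd4 between the WT groups (0.071 with quantile normalization, 0.0037 with median scaling) and Max between the WT groups (−0.074 without WT c-kit+ replicate 2, and up to 0.16 with others left out). The cause was not tested. Calls of Max and Mga were also lost without a filter (limma adjusted p = 0.0949 and 0.0588), and that of Max without a trend (0.0673).

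Between the WT groups, 33.7% of the genes called were higher in WT c-kit+, against 54.0% with quantile normalization and 46.3% with median scaling. The labels do not say what equal replicate numbers share, and the correlation of deviations ran from −0.071 to 0.24, over 0.1 in 1 of 9 pairs, so no pairing was taken from them. With the replicate number as a block, 6 members again passed between the c-kit+ groups, 5 of them the same: Myc passed (limma adjusted p = 0.0296) and Mga did not (limma adjusted p = 0.0655). The numbers passing were 3 and 8 in the other comparisons. Groups of 3 libraries and a table without read numbers limit what can be seen of low members such as Mycl and Mycn.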
